A study of Sus scrofa with 12 samples.

Results

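The Hippo, YAP and TEAD genes analysed here are 10 of the 31908 genes of a count table from porcine aortic valve interstitial cells (paVICs). They were chosen by name, with earlier results of these data known, and matched by gene symbol. All 10 had a row and passed the filter on low counts. They comprise the transcriptional coactivators YAP1 and WWTR1 (which encodes TAZ), the DNA-binding factors TEAD1 and TEAD3, the kinases LATS1 and LATS2, and CCN1, CCN2, ANKRD1 and AMOTL2, which are common readouts of YAP and TAZ activity. In the Hippo pathway, upstream kinases activate LATS1 and LATS2, which phosphorylate YAP and TAZ and thereby hold them in the cytoplasm. On stiff substrates, or when actin filaments are under tension, YAP and TAZ enter the nucleus, bind TEAD factors and turn on genes such as CCN1 and CCN2. In fibroblast-like cells, valve interstitial cells included, this route links matrix stiffness to myofibroblast activation. RNA levels do not report the phosphorylation or the location of YAP and TAZ.

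RNA sequencing compared 4 groups of wild-type paVICs after 24 h of treatment in medium with 1% serum (n = 3 libraries per group). Vehicle cells received 0.6% DMSO and 0.1% EtOH, LPC cells 10 μM lysophosphatidylcholine in EtOH plus 0.6% DMSO, dantrolene cells 60 μM dantrolene in DMSO plus 0.1% EtOH, and LPC + dantrolene cells both agents. LPC is a lipid of oxidised low-density lipoprotein, and dantrolene blocks ryanodine receptors, through which calcium leaves the endoplasmic reticulum. Each group had 1 replicate from each of 3 primary isolations, each pooled from the valves of several pig hearts and wiped to remove the endothelium. The cells were expanded, frozen, thawed and passaged before treatment on petri dishes. Replicates of the same number were taken to share an isolation, which the labels do not state. The 3 treated groups were compared with the same vehicle libraries, so those comparisons are not independent of each other.

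Libraries held 16489684 to 24105935 counts, and expression is given as CPM (a gene's counts relative to its library's total) after scaling for library composition with TMM factors. The counts had been adjusted by the authors for batch, and the study does not name the batch. Its experiments used separate isolations on different days. Such an adjustment can make p-values too small, and it brings the isolations together if they were the batch. Summed over 12 valve interstitial markers, levels were 56400 to 106000 CPM, against 66.2 to 123 CPM for 10 endothelial markers and 13.8 to 28.8 CPM for 9 leukocyte markers. The leukocyte gene PTPRC had no counts in any library, the endothelial gene KDR had at most 5, and PECAM1 had 432 to 1087. CD14, also of the leukocyte list, had 201 to 451 counts, with group means of 15.8 to 18.9 CPM. The endothelial sum was 116 to 123 CPM in vehicle libraries and 66.2 to 91.0 CPM in all treated libraries. Fewer cells of a type and less RNA per cell cannot be told apart in such libraries. The part of endothelial RNA in the results below was not tested. LPC + dantrolene replicate 2 stood apart from its group for most members (see the plot of CPM by library), and values without it are given wherever they change a call.

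LATS1 was upregulated in each treated group compared to vehicle, and it was the only member called higher in any comparison. CCN2 and ANKRD1 were downregulated by dantrolene and by LPC + dantrolene, and ANKRD1 was also lower with LPC + dantrolene than with LPC. Each of these calls, those of LATS1 included, was lost under some alternative setting, as given below. DESeq2 kept none of the calls of CCN2 and ANKRD1. No comparison called YAP1, WWTR1, TEAD1, TEAD3, LATS2, CCN1 or AMOTL2. Calls were made at an adjusted p under 0.05 in edgeR's quasi-likelihood test over 13216 genes, with Benjamini-Hochberg adjustment in each comparison.

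With LPC, 1 of 10 members was called higher and 0 lower, while 8.54% of all genes tested were higher and 0.144% lower. With dantrolene, 1 member was higher and 2 were lower, against 7.54% and 1.26% of all genes. LPC + dantrolene gave the same counts, 1 higher and 2 lower, against 6.23% and 0.9%. Compared to LPC, LPC + dantrolene had 0 members higher and 1 lower, where 0.219% and 0.288% of all genes were called. Thus the share of members called higher was near that of all genes in the comparisons with vehicle, and the share called lower was above it in both comparisons of dantrolene-treated cells with vehicle. With DESeq2, 0 members were called lower in either of these. The members were chosen with earlier results of these data known, so the shares cannot be read as a test. The median log2 fold change of the members was −0.09 with LPC, −0.32 with dantrolene and −0.25 with LPC + dantrolene, beside −0.18, −0.11 and −0.08 over all genes tested. With library totals in place of TMM factors, the medians over all genes became 0.00, 0.13 and 0.12.

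**Figure D1:**
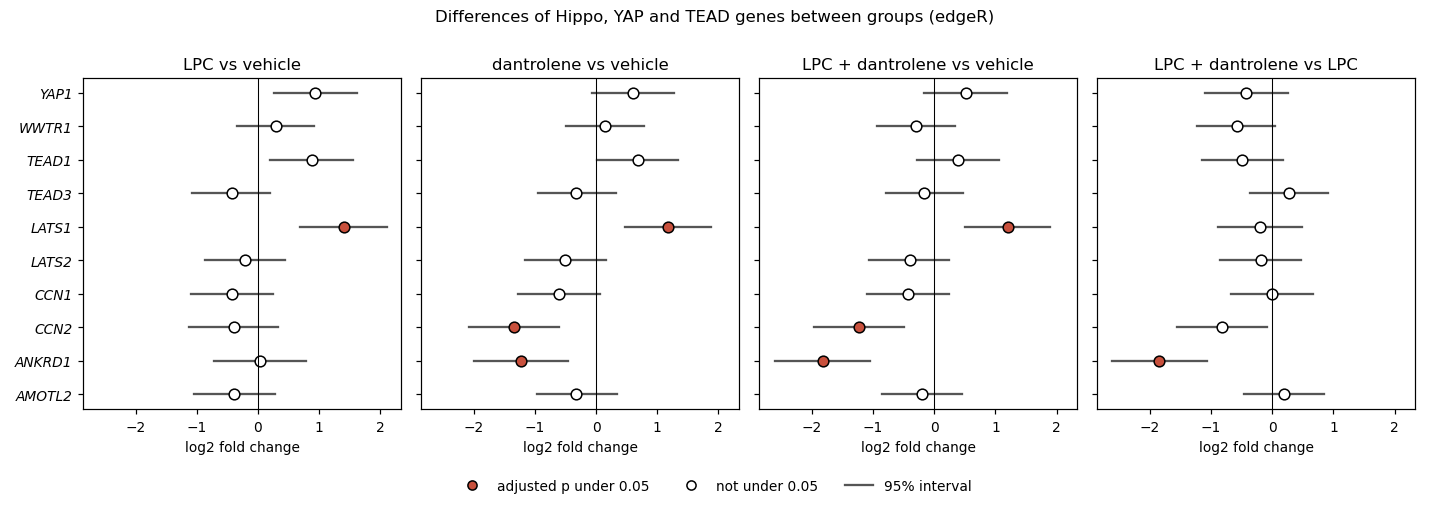
Log2 fold changes of the 10 members in the 3 comparisons with vehicle and in LPC + dantrolene against LPC, with 95% intervals from edgeR; filled points passed an adjusted p of 0.05. LATS1 lies above 0 in all 3 comparisons with vehicle, whereas CCN2 and ANKRD1 lie below 0 wherever dantrolene was compared with vehicle.

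Groups that did not overlap were counted as well. LPC libraries were all above the vehicle libraries for 4 members (YAP1, WWTR1, TEAD1 and LATS1) and all below for 1 (AMOTL2), where 16.6% and 10.6% of all genes did so. Dantrolene libraries were all above for 3 members (YAP1, TEAD1 and LATS1) and all below for 3 (LATS2, CCN2 and ANKRD1), against 16.1% and 11%. LPC + dantrolene libraries were all above for 0 members and all below for 1 (ANKRD1), against 4.71% and 5.74%. Compared to LPC, they were all above for 0 and all below for 2 (WWTR1 and ANKRD1), against 4.86% and 4.93%.

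**Figure D2:**
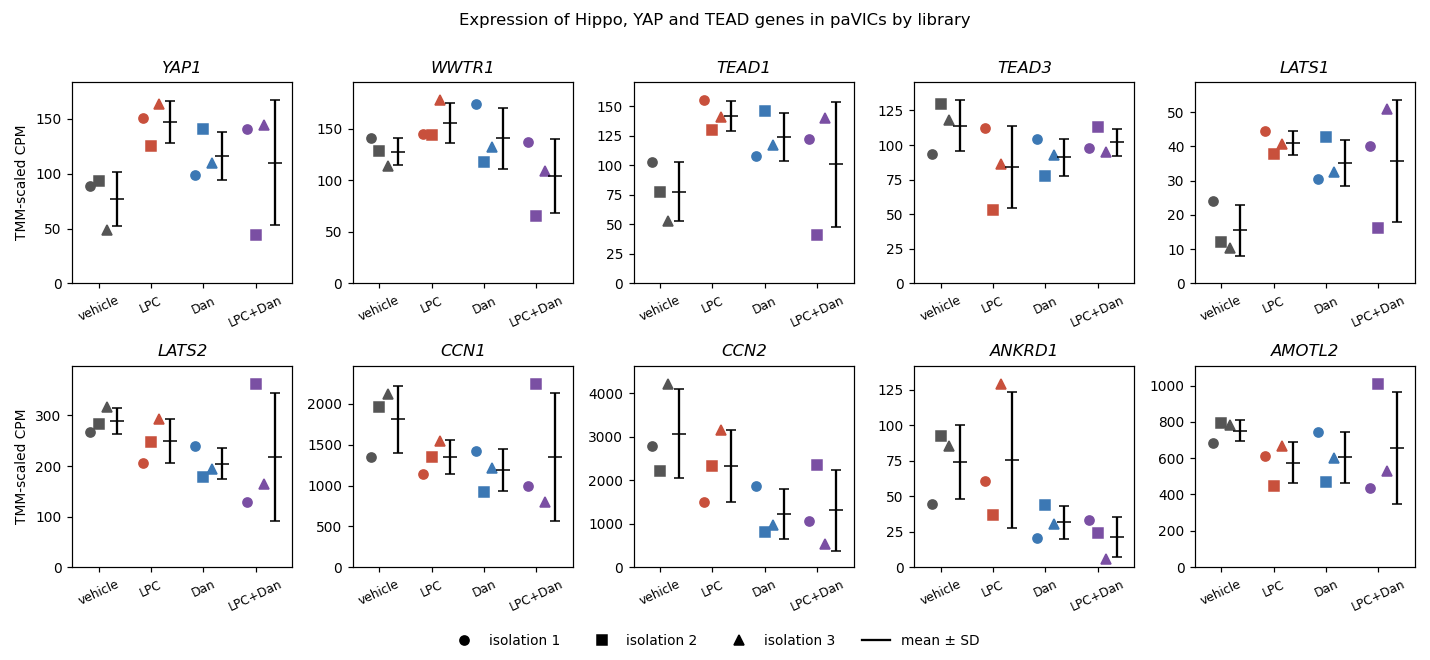
TMM-scaled CPM of each member in the 12 libraries (points, with the shape marking the isolation) with mean ± SD (n = 3) per group. The vehicle libraries and LPC + dantrolene replicate 2 (purple square) lie below all other libraries for YAP1, TEAD1 and LATS1.

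The coactivators are described first. YAP1 (ENSSSCG00000031429, chromosome 9, 32811629 to 32924926 of Sscrofa11.1) was at 88.4, 93.2 and 48.7 CPM in vehicle replicates 1 to 3 and at 150.8, 125.5 and 163 CPM with LPC. It was at 98.9, 141 and 109.7 CPM with dantrolene and at 141, 43.8 and 144.5 CPM with LPC + dantrolene. All LPC and dantrolene libraries lay above all vehicle libraries, while LPC + dantrolene had 2 libraries in the range of LPC and 1 below every vehicle library. The log2 fold change with LPC was 0.93 (SE 0.34, 95% interval 0.26 to 1.61), in 3 of 3 same-isolation pairs, and missed the threshold (adjusted p = 0.0773). It was 0.60 with dantrolene (adjusted p = 0.402) and 0.52 with LPC + dantrolene (adjusted p = 0.595). Without LPC + dantrolene replicate 2, YAP1 passed the threshold with LPC (1.00, adjusted p = 0.00387) and with LPC + dantrolene (0.95, adjusted p = 0.0133). It also passed with LPC when only those libraries and the vehicle libraries were fitted (1.01, adjusted p = 0.00290) and when genes needed at least 10 counts in every library (0.93, adjusted p = 0.0363).

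WWTR1 (ENSSSCG00000011704, chromosome 13, 89742980 to 89889547), the gene of TAZ, was at 140.9, 128 and 114 CPM in vehicle libraries and at 145, 144 and 178 CPM with LPC. With dantrolene it was at 175, 117.5 and 132 CPM, and with LPC + dantrolene at 137, 65.8 and 109 CPM. The LPC libraries lay just above the vehicle libraries, and the other groups overlapped vehicle. Log2 fold changes compared to vehicle were 0.29 (95% interval −0.35 to 0.92), 0.15 (−0.49 to 0.78) and −0.30 (−0.93 to 0.34) for LPC, dantrolene and LPC + dantrolene, with adjusted p of 0.693, 0.871 and 0.858 in edgeR. Compared to LPC, LPC + dantrolene was at −0.58 on the log2 scale (adjusted p = 0.808). That value was −0.35 without LPC + dantrolene replicate 2, and LPC + dantrolene compared to vehicle was then at 0.00. None of the alternatives tried called WWTR1.

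Among the DNA-binding partners, TEAD1 (ENSSSCG00000013399, chromosome 2, 46396490 to 46670619) followed the pattern of YAP1. Its levels were 102.6, 77.1 and 52.7 CPM with vehicle, 155, 129.8 and 141 CPM with LPC, 107.7, 146 and 117 CPM with dantrolene, and 122.5, 41.4 and 140.4 CPM with LPC + dantrolene. Again the LPC and dantrolene libraries lay above the vehicle libraries, and LPC + dantrolene replicate 2 lay below them. The log2 fold change was 0.88 with LPC (SE 0.34, adjusted p = 0.106), 0.68 with dantrolene (adjusted p = 0.298) and 0.39 with LPC + dantrolene (adjusted p = 0.780). Without LPC + dantrolene replicate 2, TEAD1 passed the threshold in all 3 comparisons with vehicle (0.94, 0.73 and 0.81, with adjusted p of 0.00660, 0.0482 and 0.0400), and with only the LPC and vehicle libraries it was at 0.95 (adjusted p = 0.00594).

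TEAD3 (ENSSSCG00000001544, chromosome 7, 31337890 to 31351452) had its highest group mean in vehicle libraries. It was at 93.4, 129.5 and 118 CPM with vehicle and at 112.5, 53.1 and 86.6 CPM with LPC. With dantrolene it was at 104, 77.4 and 92.5 CPM, and with LPC + dantrolene at 97.9, 113 and 94.6 CPM. All groups overlapped, and the lowest value belonged to LPC replicate 2. The log2 fold change compared to vehicle was −0.43 with LPC (95% interval −1.07 to 0.20, adjusted p = 0.575), −0.32 with dantrolene (adjusted p = 0.720) and −0.16 with LPC + dantrolene (adjusted p = 0.949). The last of these was 0.04 when libraries were scaled by their totals. Of the other TEAD partners and cofactors, 6 of 8 were tested and 0 were called in any comparison. TEAD2 was at −0.31, 0.06 and 0.01 on the log2 scale for LPC, dantrolene and LPC + dantrolene compared to vehicle, TEAD4 at −0.45, −0.61 and −0.71, and the cofactor VGLL3 at 0.94, 0.37 and −0.12.

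Of the kinases that phosphorylate YAP and TAZ, LATS1 was upregulated and LATS2 was not called. LATS1 (ENSSSCG00000004106, chromosome 1, 16274955 to 16320980) was at 24.1, 12.1 and 10.3 CPM in vehicle libraries and at 44.4, 37.7 and 40.8 CPM with LPC. It was at 30.3, 42.8 and 32.4 CPM with dantrolene and at 40.2, 16.1 and 50.9 CPM with LPC + dantrolene. The LPC and dantrolene libraries did not overlap vehicle, and in LPC + dantrolene only replicate 2 fell in the vehicle range.

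LATS1 rose with LPC by 1.40 on the log2 scale (SE 0.35, 95% interval 0.69 to 2.10, adjusted p = 0.00340), with dantrolene by 1.18 (SE 0.35, 0.48 to 1.88, adjusted p = 0.0192) and with LPC + dantrolene by 1.20 (SE 0.35, 0.50 to 1.90, adjusted p = 0.0187). In each comparison 3 of 3 same-isolation pairs were higher. In the order of group levels, LPC was followed by LPC + dantrolene, dantrolene and vehicle, and only the last step passed the threshold. The interaction, the effect of LPC with dantrolene less its effect without, was −1.37 (SE 0.49) and did not pass (adjusted p = 0.0990). It passed without vehicle replicate 1 (−1.84, adjusted p = 0.0408) or LPC + dantrolene replicate 3 (−1.72, adjusted p = 0.0261). The call with LPC was lost without vehicle replicate 2 (1.25, adjusted p = 0.0759) or 3 (1.22, adjusted p = 0.0522). The call with dantrolene was lost without vehicle replicate 2 or 3, LPC replicate 2 or dantrolene replicate 2 (1.00 to 1.18, adjusted p of 0.0616 to 0.185). That with LPC + dantrolene was lost in the fit with the isolation as a block (1.20, adjusted p = 0.0662), when only its libraries and the vehicle libraries were fitted (adjusted p = 0.0959), and without vehicle replicate 2 or 3, LPC replicate 2, or LPC + dantrolene replicate 1 or 3 (0.86 to 1.20, adjusted p of 0.0631 to 0.368).

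LATS2 (ENSSSCG00000036326, chromosome 11, 1225523 to 1265970) is itself a transcriptional target of YAP as well as its kinase. It was at 267, 283.5 and 316 CPM with vehicle and at 206.5, 247 and 293 CPM with LPC. With dantrolene it was at 239.5, 179 and 195 CPM, below all vehicle libraries, and with LPC + dantrolene at 129, 362.5 and 164 CPM. LPC + dantrolene thus held the lowest 2 libraries and the highest of all 12. The log2 fold change was −0.22 with LPC (adjusted p = 0.767), −0.50 with dantrolene (95% interval −1.16 to 0.16, adjusted p = 0.526) and −0.40 with LPC + dantrolene (adjusted p = 0.748), and the last became −0.93 (adjusted p = 0.0185) without LPC + dantrolene replicate 2.

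Of the secreted readouts, CCN2, which encodes connective tissue growth factor, was called and CCN1 was not. CCN2 (ENSSSCG00000004192, listed by RefSeq as CTGF, chromosome 1, 31674398 to 31677697) was at 2787, 2210 and 4215 CPM with vehicle and at 1495, 2317 and 3149 CPM with LPC. It was at 1869, 812.7 and 965.5 CPM with dantrolene and at 1059, 2344 and 539.7 CPM with LPC + dantrolene. Every dantrolene library lay below every vehicle library, while LPC overlapped vehicle and LPC + dantrolene replicate 2 fell in the vehicle range.

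CCN2 fell by 1.34 on the log2 scale with dantrolene (SE 0.37, 95% interval −2.07 to −0.60, adjusted p = 0.00942), lower in 3 of 3 pairs, and by 1.22 with LPC + dantrolene (SE 0.37, −1.96 to −0.49, adjusted p = 0.0224), lower in 2 of 3 pairs. The latter was −1.87 (adjusted p = 4.08e-05) without LPC + dantrolene replicate 2. With LPC alone the value was −0.40 (adjusted p = 0.641). LPC + dantrolene compared to LPC gave −0.82 (adjusted p = 0.612), which became −1.55 (adjusted p = 0.00928) without LPC + dantrolene replicate 2. The call with dantrolene was lost with DESeq2 (−1.28, adjusted p = 0.198) and with library totals (−1.11, adjusted p = 0.0506), and without vehicle replicate 3, LPC replicate 2, or dantrolene replicate 2 or 3 (adjusted p of 0.0526 to 0.168). That with LPC + dantrolene was lost with the isolation as a block (−1.26, adjusted p = 0.0899), with DESeq2 (−1.15, adjusted p = 0.334), with library totals (−1.10, adjusted p = 0.0603) and with only the groups compared (−1.14, adjusted p = 0.204). It was also lost without vehicle replicate 1 or 3, LPC replicate 2, or LPC + dantrolene replicate 1 or 3 (−1.29 to −0.85, adjusted p of 0.0848 to 0.352).

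CCN1 (ENSSSCG00000006940, listed by RefSeq as CYR61, chromosome 4, 130392404 to 130395179), a matricellular protein of the same family, was at 1344, 1962 and 2116 CPM with vehicle and at 1136, 1352 and 1548 CPM with LPC. It was at 1426, 923.9 and 1217 CPM with dantrolene and at 998.1, 2246 and 799.6 CPM with LPC + dantrolene, where replicate 2 was the highest of all libraries. All treated groups overlapped vehicle. The log2 fold change was −0.43 with LPC (95% interval −1.10 to 0.25, adjusted p = 0.607), −0.60 with dantrolene (−1.28 to 0.07, adjusted p = 0.401) and −0.42 with LPC + dantrolene (−1.10 to 0.25, adjusted p = 0.734). The last was −0.95 (adjusted p = 0.0218) without LPC + dantrolene replicate 2.

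ANKRD1, a nuclear and sarcomeric ankyrin repeat protein, showed the largest decrease of any member with LPC + dantrolene. The gene (ENSSSCG00000010461, chromosome 14, 102603777 to 102612857) was at 44.3, 92.8 and 85.4 CPM with vehicle and at 60.5, 37.0 and 129 CPM with LPC. It was at 20.8, 44.1 and 30.3 CPM with dantrolene and at 33.3, 24.1 and 5.71 CPM with LPC + dantrolene. The dantrolene libraries lay just below the vehicle libraries, and the LPC + dantrolene libraries lay below all vehicle and all LPC libraries. LPC replicate 3 was the highest of the 12 libraries, and LPC + dantrolene replicate 3 the lowest.

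ANKRD1 fell by 1.22 on the log2 scale with dantrolene (SE 0.38, 95% interval −1.99 to −0.46, adjusted p = 0.0279), by 1.82 with LPC + dantrolene compared to vehicle (SE 0.39, −2.60 to −1.04, adjusted p = 0.000580), and by 1.84 compared to LPC (SE 0.39, −2.62 to −1.07, adjusted p = 0.00531). It was lower in 3 of 3 same-isolation pairs in each of these. LPC alone gave 0.03 (95% interval −0.72 to 0.78, adjusted p = 0.977). LPC compared to dantrolene gave 1.25 (adjusted p = 0.209), and 1.25 with an adjusted p of 0.0426 among genes with at least 10 counts in every library. The call of LPC + dantrolene against vehicle was lost with DESeq2 (−1.75, adjusted p = 0.109) and with no other alternative. The call with dantrolene was lost with DESeq2 (−1.16, adjusted p = 0.421), with library totals (−0.96, adjusted p = 0.268), with RLE size factors (−1.15, adjusted p = 0.0515), and in the blocked fit (−1.22, adjusted p = 0.106). It was also lost without vehicle replicate 2 or 3, LPC replicate 1 or 2, or dantrolene replicate 1 or 3 (−1.22 to −0.93, adjusted p of 0.0585 to 0.285). The call against LPC was lost with DESeq2 (−1.84, adjusted p = 0.344), with library totals (−1.77, adjusted p = 0.178), with only the groups compared (−1.85, adjusted p = 0.113) and with the isolation as a block (−1.80, adjusted p = 0.151). It was also lost without vehicle replicate 1, any LPC replicate, or LPC + dantrolene replicate 3 (−2.18 to −1.21, adjusted p of 0.0542 to 0.296).

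AMOTL2, an angiomotin that binds YAP and is also a YAP target (ENSSSCG00000011643, chromosome 13, 75490936 to 75507360), was at 683, 792 and 781 CPM with vehicle and at 613, 447 and 664 CPM with LPC. It was at 745, 466 and 602 CPM with dantrolene and at 436, 1009 and 528 CPM with LPC + dantrolene. The LPC libraries were all below the vehicle libraries, and LPC + dantrolene held both the lowest and the highest library. Log2 fold changes were −0.39 with LPC (95% interval −1.05 to 0.27, adjusted p = 0.629), −0.32 with dantrolene (adjusted p = 0.732) and −0.19 with LPC + dantrolene (adjusted p = 0.932), and the last was −0.59 (adjusted p = 0.201) without LPC + dantrolene replicate 2. No alternative called AMOTL2.

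Between the treated groups, LPC + dantrolene compared to dantrolene called 0 of 10 members (3 of the 13216 genes, 0.0227%), with 0 members at an unadjusted p under 0.05 (1.28% of all genes) and 0 called by DESeq2. LPC compared to dantrolene called 0 members (0.325% of all genes), with CCN2 (0.93) and ANKRD1 (1.25) at an unadjusted p under 0.05 (4.4% of all genes) and 0 called by DESeq2. The interaction of LPC and dantrolene called 0 members, where 4.65% of all genes were called, nearly all of them negative (4.49%). YAP1 (−1.02), TEAD1 (−1.16) and LATS1 (−1.37) had an unadjusted p under 0.05 for the interaction (14.5% of all genes did), with adjusted p of 0.287, 0.176 and 0.0990, and DESeq2 called 0.

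Library composition differed between libraries along with the levels of several members. The 4 libraries with the lowest TMM factors (0.863 to 0.918) were the 3 vehicle libraries and LPC + dantrolene replicate 2, and the other 8 had factors of 0.924 to 1.15. YAP1 was at 43.8 to 93.2 CPM in those 4 libraries and at 98.9 to 163 CPM in the other 8, TEAD1 at 41.4 to 103 and 108 to 155 CPM, and LATS1 at 10.3 to 24.1 and 30.3 to 50.9 CPM. LPC replicate 3, whose factor of 0.924 was next above that of vehicle replicate 1 (0.918), had the highest YAP1 of the 12 libraries (163 CPM) and LATS1 at 40.8 CPM. These 3 genes did not overlap between the 2 sets, nor did they without TMM scaling, where LATS1 was at 9.04 to 22.1 and 30.5 to 56.7 CPM. The other direction was seen for CCN1 (1340 to 2250 and 800 to 1550 CPM) and LATS2 (267 to 363 and 129 to 293 CPM), with overlap. ANKRD1 overlapped widely, at 24.1 to 92.8 and 5.71 to 129 CPM. The share of all genes that did not overlap between the 2 sets was not counted. Since 3 of the 4 libraries are the whole vehicle group, library composition and treatment cannot be told apart.

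Over the 12 libraries the members formed sets that varied together. These correlations of log2 CPM are descriptions over libraries that share treatments, isolations and composition, and genes scaled by a common factor are not independent. YAP1 and TEAD1 had a Pearson r of 0.97, TEAD1 and LATS1 0.89, and YAP1 and LATS1 0.86. LATS2 and CCN1 had an r of 0.90, CCN1 and CCN2 0.84, LATS2 and CCN2 0.83, and AMOTL2 and CCN1 0.82. Between these sets r was negative, at −0.87 for CCN1 and LATS1 and −0.78 for CCN1 and YAP1. ANKRD1 was closest to CCN2 (0.68) and had an r of −0.06 with YAP1.

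**Figure D3:**
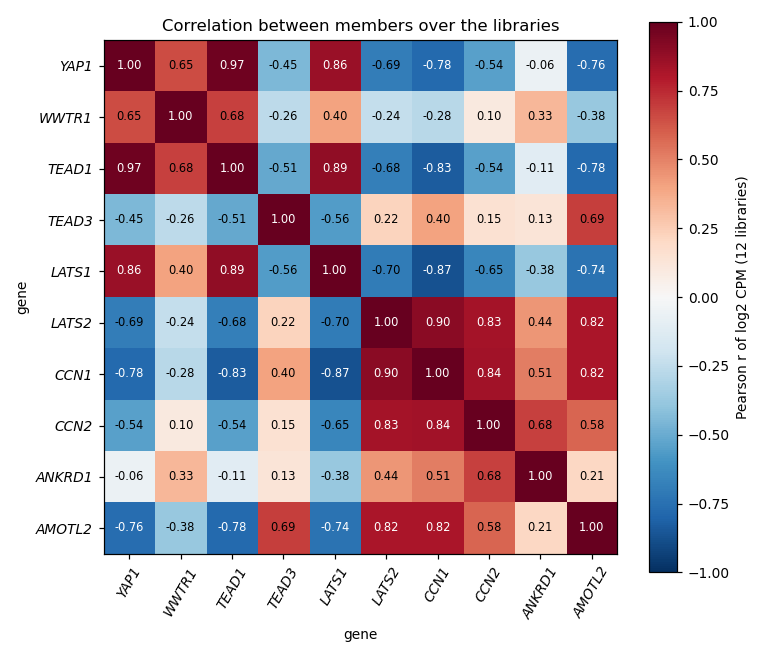
Pearson r of log2 CPM between each pair of members over the 12 libraries, with red for positive and blue for negative values. YAP1, TEAD1 and LATS1 form a positive block (0.86 to 0.97), LATS2, CCN1 and CCN2 another (0.83 to 0.90), and r between the blocks is negative.

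Ratios between paired members of the same library do not depend on how libraries are scaled. They were chosen after the values had been seen, and with 3 libraries against 3 the smallest p of the two-sided exact permutation test is 0.1. The log2 ratio of LATS1 to LATS2 was −3.47, −4.55 and −4.94 in vehicle libraries, −2.22, −2.71 and −2.85 with LPC, −2.98, −2.07 and −2.59 with dantrolene, and −1.68, −4.49 and −1.69 with LPC + dantrolene. The ratio was higher in every LPC and dantrolene library than in every vehicle library, and only replicate 2 of LPC + dantrolene fell in the vehicle range. The libraries with the lowest TMM factors (vehicle and LPC + dantrolene replicate 2) were thus at −4.94 to −3.47. All others were at −2.98 to −1.68. Library composition and treatment cannot be told apart for this ratio either. The mean was −4.32 ± 0.76 with vehicle, −2.59 ± 0.33 with LPC and −2.55 ± 0.46 with dantrolene (SD, n = 3, exact permutation p = 0.1 for each, 0.343 after adjustment over 24 tests). The ratio of TEAD1 to TEAD3 was −0.59 ± 0.66 with vehicle and 0.82 ± 0.42 with LPC (n = 3, exact permutation p = 0.1), and that of YAP1 to WWTR1 was −0.79 ± 0.39 and −0.09 ± 0.13 (n = 3, exact permutation p = 0.1).

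The ratio of CCN2 to CCN1 had lower means in both groups with dantrolene. It was 0.74 ± 0.49 with vehicle and 0.73 ± 0.32 with LPC, and it was −0.04 ± 0.38 with dantrolene and −0.14 ± 0.37 with LPC + dantrolene (SD, n = 3). The exact permutation p was 0.2 for dantrolene against vehicle, 0.1 for LPC + dantrolene against vehicle and against LPC, and 0.1 for LPC against dantrolene. With LPC + dantrolene it lay at 0.08, 0.06 and −0.57, below every vehicle and LPC library, while dantrolene replicate 1 (0.39) lay within the vehicle range. No exact permutation test of 3 libraries against 3 can pass the threshold.

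**Figure D4:**
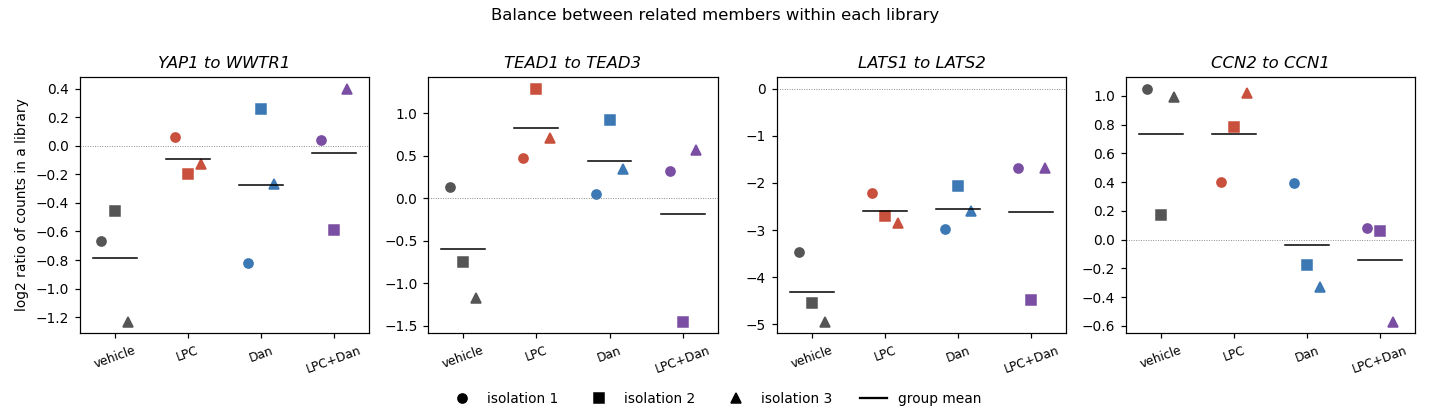
Log2 ratio of 2 members within each library, by group (points, with the shape marking the isolation, and a line at the group mean; n = 3), for YAP1 to WWTR1, TEAD1 to TEAD3, LATS1 to LATS2 and CCN2 to CCN1. LATS1 to LATS2 is between −4.94 and −3.47 in vehicle libraries and between −2.98 and −2.07 in LPC and dantrolene libraries.

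The other genes of the pathway were taken from lists written with earlier results of these data known. Upstream of YAP, 19 of 20 listed genes of the Hippo kinase cassette were tested, and 7 were higher with LPC, 6 with dantrolene and 5 with LPC + dantrolene, with 0 lower. Of all genes tested, 8.54%, 7.54% and 6.23% were called higher and 0.144%, 1.26% and 0.9% lower. The median log2 fold change of the 19 was 0.29, 0.16 and −0.03, beside −0.18, −0.11 and −0.08 over all genes. MOB1A, the coactivator of the LATS kinases, was at 32.8 ± 10.8 CPM with vehicle, 134 ± 15.9 with LPC, 115 ± 47.2 with dantrolene and 111 ± 57.6 with LPC + dantrolene (SD, n = 3). It rose by 2.03, 1.81 and 1.76 on the log2 scale (adjusted p of 1.56e-05, 0.000142 and 0.000215), and its paralog MOB1B by 1.76, 1.61 and 1.45 (adjusted p of 0.000417, 0.00160 and 0.00542).

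The kinase MAP4K5, which acts on LATS in parallel with MST kinases, rose by 1.64, 1.30 and 1.31. STK38L, a relative of LATS, rose with LPC by 1.61 (adjusted p = 0.000351), from 76.2 ± 5.86 to 233 ± 10.8 CPM (SD, n = 3). TAOK1, which activates MST kinases, rose by 1.51 with LPC, 1.45 with dantrolene and 1.51 with LPC + dantrolene. The LPC + dantrolene libraries overlapped the vehicle libraries for MOB1A, MOB1B, MAP4K5 and TAOK1. There MOB1B, MAP4K5 and TAOK1 were higher in 2 of 3 same-isolation pairs. TAOK1 was at 5.59 to 26.8 CPM with LPC + dantrolene and at 3.72 to 8.58 CPM with vehicle. The interaction was called negative for 4 of the 19 genes, where 4.49% of all genes were, namely for MOB1A (−2.07, adjusted p = 0.00446), MOB1B (−1.92), STK38L (−1.70) and MAP4K5 (−1.62). The count with dantrolene was 2 to 3 without vehicle replicate 2 or 3 or dantrolene replicate 2. That with LPC + dantrolene was 1 to 3 without vehicle replicate 2 or 3, LPC replicate 2, or LPC + dantrolene replicate 1 or 3, 1 with only the groups compared, 3 in the blocked fit, and 7 without LPC + dantrolene replicate 2. The 4 negative interactions became 0 without vehicle replicate 2, LPC replicate 2 or dantrolene replicate 2, 1 without LPC replicate 1, 2 without vehicle replicate 1, 7 without LPC + dantrolene replicate 3, and 1 with the block or with library totals.

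STRIPAK, a phosphatase complex that dephosphorylates MST kinases and so opposes Hippo signalling, had 13 of 15 genes tested. Of these 4 were higher with LPC, 4 with dantrolene and 2 with LPC + dantrolene, and 0 were lower. Of all genes tested, 8.54%, 7.54% and 6.23% were called higher and 0.144%, 1.26% and 0.9% lower. Medians of the 13 were 0.68, 0.58 and 0.11, beside −0.18, −0.11 and −0.08 over all genes. FGFR1OP2 rose by 1.67, 1.57 and 1.59 on the log2 scale (adjusted p of 0.00103, 0.00270 and 0.00254) and SLMAP by 1.23, 1.24 and 1.11 (adjusted p of 0.00954, 0.0100 and 0.0283). With LPC + dantrolene SLMAP was at 31.4 to 95.5 CPM, overlapping vehicle at 24.2 to 40.6 CPM. STRN3 and STRN, the striatin scaffolds, rose with LPC (1.18 and 1.09) and with dantrolene (1.04 and 1.19). The lists of Hippo kinases and of their opposing phosphatase complex, both written with earlier results of these data known, had genes called higher. The counts with LPC and with dantrolene were 2 with the isolation as a block, and 0 to 2 without vehicle replicate 2 or 3, LPC replicate 1 or 2, or, for dantrolene, dantrolene replicate 2. That with LPC + dantrolene was 1 with the block, 5 without LPC + dantrolene replicate 2, and 1 without any other vehicle or LPC + dantrolene library or without LPC replicate 1 or 2.

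Of the listed scaffolds and turnover factors, not all of which bind YAP, 19 of 21 were tested, and DLG1, a polarity scaffold, was the 1 gene called. Of all genes tested, 8.54%, 7.54% and 6.23% were called higher with LPC, dantrolene and LPC + dantrolene. DLG1 rose by 1.48, 1.08 and 1.03 with LPC, dantrolene and LPC + dantrolene (adjusted p of 0.00113, 0.0278 and 0.0443), and its interaction was −1.52 (adjusted p = 0.0443). With LPC + dantrolene DLG1 was at 29.2 to 88.4 CPM, overlapping vehicle at 27.7 to 37.3 CPM. The blocked fit lost the calls with dantrolene and LPC + dantrolene and the interaction. They were also lost without any 1 vehicle library, LPC replicate 1 or 2, or dantrolene replicate 2 or 3. The call with LPC + dantrolene was further lost with only the groups compared and without LPC + dantrolene replicate 1 or 3, and the interaction with library totals and without LPC replicate 3 or LPC + dantrolene replicate 2.

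Downstream of YAP and TAZ, 19 of 22 other target genes were tested. With LPC 1 was higher and 0 lower, and with dantrolene and with LPC + dantrolene 1 was higher and 3 were lower. Of all genes tested, 8.54%, 7.54% and 6.23% were called higher and 0.144%, 1.26% and 0.9% lower. Medians of the 19 were −0.26, −0.51 and −0.45, beside −0.18, −0.11 and −0.08 over all genes. The lower genes included F3, the tissue factor gene, and BIRC5, an inhibitor of apoptosis that acts in cell division. F3 was at 44.7 ± 19.5 CPM with vehicle, 38.2 ± 13.7 with LPC, 19.2 ± 8.10 with dantrolene and 15.1 ± 10.5 with LPC + dantrolene (SD, n = 3). It fell by 1.22 on the log2 scale (adjusted p = 0.0240) with dantrolene and by 1.56 (adjusted p = 0.00267) with LPC + dantrolene, and BIRC5 fell by 1.62 (adjusted p = 0.00672) and 1.37 (adjusted p = 0.0310). RBMS3, an RNA-binding protein, was the higher gene, at 1.63, 1.39 and 1.16 with LPC, dantrolene and LPC + dantrolene. With LPC + dantrolene it was at 9.25 to 38.8 CPM, overlapping vehicle at 8.6 to 14.8 CPM.

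The 3 lower targets with dantrolene became 1 without vehicle replicate 2. Those with LPC + dantrolene became 0 with library totals, with only the groups compared, or without vehicle replicate 2 or LPC + dantrolene replicate 3, 1 with the isolation as a block or without vehicle replicate 3, and 5 without LPC + dantrolene replicate 2. RBMS3 lost its call with dantrolene without vehicle replicate 3 or dantrolene replicate 2, and its call with LPC + dantrolene with the block, with DESeq2, with only the groups compared, and without any 1 vehicle library, LPC replicate 1 or 2, or LPC + dantrolene replicate 1 or 3.

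Of genes of RhoA, ROCK and SRF signalling, through which actin tension reaches YAP, 23 of 25 were tested, and 4 were higher in each comparison with vehicle, while 0 were lower with LPC, 1 with dantrolene and 0 with LPC + dantrolene. Of all genes tested, 8.54%, 7.54% and 6.23% were called higher and 0.144%, 1.26% and 0.9% lower. The 1 lower gene became 0 with the block, with library totals, and without vehicle replicate 2 or 3, LPC replicate 2, or dantrolene replicate 2 or 3, and 4 genes were lower with only the groups compared and 2 with at least 10 counts in every library. Without LPC + dantrolene replicate 2, 2 were lower with dantrolene and 5 with LPC + dantrolene. The called genes included ROCK1 and ROCK2, kinases that drive actomyosin contraction. ROCK1 was at 18 ± 4.11 CPM with vehicle, 82.3 ± 9.84 with LPC, 68.4 ± 41.7 with dantrolene and 60.4 ± 31.6 with LPC + dantrolene (SD, n = 3). ROCK1 rose by 2.19, 1.93 and 1.75 on the log2 scale (adjusted p of 9.36e-06, 8.86e-05 and 0.000372) and ROCK2 by 2.53, 1.92 and 2.01 (adjusted p of 2.37e-06, 0.000171 and 1e-04). DIAPH2, a formin, rose by 2.08, 1.81 and 1.76, and SYNE2, which links the nucleus to actin, by 1.57, 1.26 and 1.43. With LPC + dantrolene, ROCK2 (15.3 to 68.1 CPM) and DIAPH2 (21.2 to 78.3 CPM) overlapped vehicle (9.06 to 17 and 11.7 to 24.5 CPM).

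The median of the 23 genes was −0.34, −0.39 and −0.21, and RHOA itself was at −0.46, −0.44 and −0.21, with no call. ROCK1 (−2.37), ROCK2 (−2.45) and DIAPH2 (−2.13) had negative interactions that passed the threshold, and none of them did so without LPC replicate 2 or dantrolene replicate 2, while the count was 5 without LPC + dantrolene replicate 3. Of all genes tested, 4.49% had a called negative interaction. Without LPC + dantrolene replicate 2, 5 genes of the list were lower with LPC + dantrolene, and without dantrolene replicate 2 the higher genes with dantrolene were 2. In LPC + dantrolene against LPC, 0 genes were called in each of these 6 lists.

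**Figure D5:**
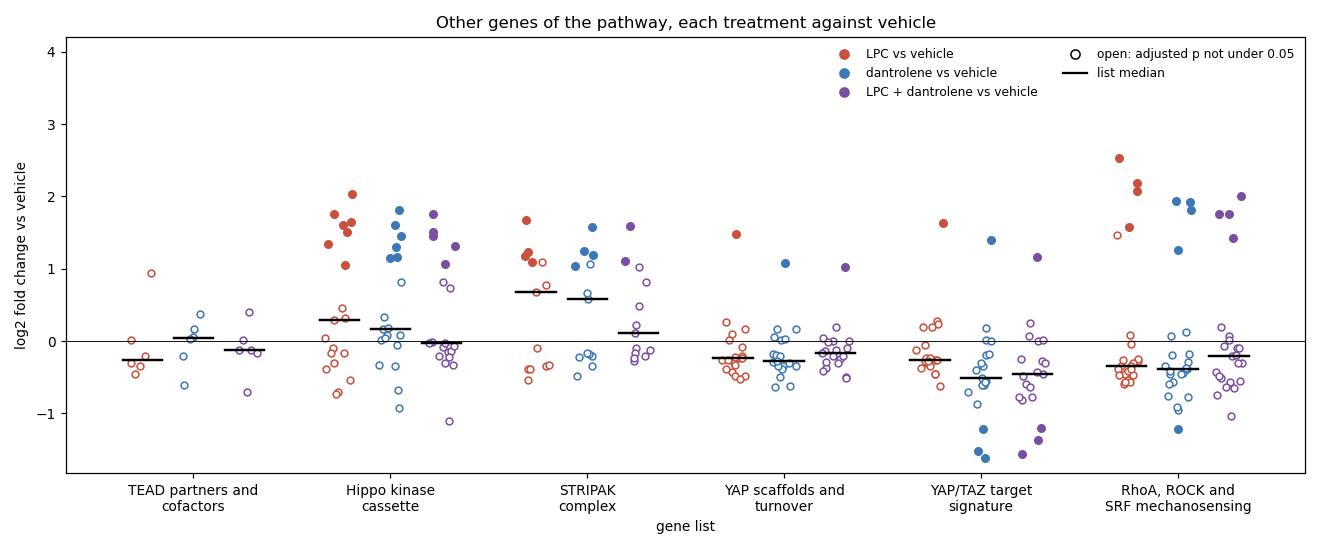
Log2 fold change compared to vehicle of each tested gene (points) in 6 lists of pathway genes, with colours for the 3 treatments, filled points for an adjusted p under 0.05 and bars for the list median. Kinases (7, 6 and 5 genes) and STRIPAK (4, 4 and 2) have calls in the higher direction only, and 3 YAP/TAZ targets are lower in each comparison with dantrolene-treated cells. Of all genes tested, 8.54%, 7.54% and 6.23% were called higher and 0.144%, 1.26% and 0.9% lower.

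Of 6 smooth muscle markers, 1 was called lower both with dantrolene and with LPC + dantrolene, DES (−1.30, adjusted p = 0.0117, and −1.63, adjusted p = 0.00114), and 1 was called higher with LPC, SYNPO2 (1.22, adjusted p = 0.00882). Of all genes tested, 1.26% and 0.9% were lower with dantrolene and LPC + dantrolene, and 8.54% were higher with LPC. SYNPO2 was at 171 ± 23.3 CPM with vehicle, 400 ± 119 with LPC, 261 ± 57.4 with dantrolene and 188 ± 105 with LPC + dantrolene (SD, n = 3). Of 9 endothelial markers tested, 1 was called lower with dantrolene, the cadherin gene CDH5 (−1.20, adjusted p = 0.0111), and 0 were called with LPC or LPC + dantrolene. TEK, with at most 24 counts in a library, was not called, at 0.275 ± 0.247 CPM (SD, n = 3) with vehicle, 1.02 ± 0.291 CPM with LPC, 0.306 ± 0.172 CPM with dantrolene and 0.808 ± 0.136 CPM with both. The sum over 6 smooth muscle markers was 2360 to 4460 CPM with vehicle, 2380 to 4290 with LPC, 1920 to 2500 with dantrolene and 1050 to 2970 with LPC + dantrolene. Their part in the decreases of CCN2 and ANKRD1 was not tested.

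The genes most like each member were named by the highest Pearson r of log2 CPM over the 12 libraries, as a description. For YAP1 they were DGKH (0.982), ZYG11B (0.981) and RHOBTB3 (0.979), for TEAD1 PCMTD1 (0.990), BTBD1 (0.990) and LARS1 (0.988), and for LATS1 ZNF800 (0.992), OTUD4 (0.991) and CCSER2 (0.984). CCN2 was most like RASL11B (0.986), RHOB (0.976) and LMCD1 (0.976), CCN1 like TAX1BP3 (0.958), ACTN1 (0.956) and ACTA2 (0.955), and LATS2 like SFRP1 (0.979), MYO1C (0.973) and CAPN2 (0.968). For ANKRD1 they were PALMD (0.959), DES (0.951) and ISM1 (0.951), and for AMOTL2 DCAF7 (0.980), ASB1 (0.972) and TRIM3 (0.972). WWTR1 was most like NUP160 (0.948), SEC24D (0.947) and KCTD20 (0.946), and TEAD3 like FAM189B (0.972), FAM53C (0.967) and RRP7A (0.966).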

How the data were processed

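Poly-A RNA libraries of paVICs were sequenced in 12 samples. The study's methods name STAR for annotation, and the submitters' processing notes list HISAT2 2.0.5, R 4.1.1, DESeq2 1.32.0 and the build Sscrofa11.1. Which tool aligned the reads is not given in the sources used here. The authors adjusted the counts for batch with ComBat and do not name the batch. They deposited whole-number counts per gene, which are therefore not the reads as sequenced. The tests take no account of the degrees of freedom spent on this adjustment, and unadjusted counts were not used here. Also deposited were the authors' own comparisons (mean counts, log2 fold changes with standard errors, test statistics and p-values), which were not used.

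Differential expression was computed with edgeR 4.0.16 (R 4.3.3). Of 31908 genes, 13216 passed filterByExpr. TMM factors set the effective library sizes, and a quasi-likelihood model with a term for the group only was fitted to the 12 libraries together. The 6 comparisons between groups and the interaction (the effect of LPC with dantrolene less that without) were tested two-sided, with Benjamini-Hochberg adjustment over all genes tested. SEs were obtained from the fold change and its F statistic. Log2 CPM used a prior count of 2, and 3 counts correspond to 0.114 to 0.186 CPM, which covers counting error only. The scripts were tested on simulated counts. No test compared levels between genes, since gene lengths were not used. Gene positions are those of RefSeq for Sscrofa11.1.

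Groups came from the labels. Libraries with the same replicate number were taken to share a primary isolation, which the labels do not state, and were treated as pairs. Deviations from group means had a median r of −0.152 within isolations (18 pairs, −0.536 to 0.207) and 0.108 between isolations and groups (36 pairs). If the isolations were the batch, the ComBat adjustment fixed this outcome. No libraries of the same group agreed within sampling noise. The only replicate error here is the spread left between libraries of a group after the batch adjustment. It may be smaller than the spread between isolations, each pooled from several hearts.

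The members and the gene lists were chosen with earlier results of these data known. All 10 members are named, of each other list at most 4 genes per comparison and direction with the smallest adjusted p, and for each member the 3 genes most like it. TEAD2, TEAD4, VGLL3, RHOA, PTPRC, CD14, KDR, PECAM1, TEK and the value of TAOK1 with LPC are given outside that rule, as is every ratio, all chosen after their values were seen. Some genes that meet the rule are not reported here. The fits were repeated with the isolation as a block, with RLE size factors, with library totals alone, with DESeq2 1.42.0, without a filter, with a minimum of 10 counts in every library, with only the groups compared, at a threshold of 0.1, and leaving out each library in turn.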

Additional observations from a re-analysis of the deposited data

Results flagged for a closer look

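With replicate numbers taken as isolations, the same contrast moved in opposite directions in every isolation of the 2 arms in 3 cases. This pattern was searched for among the members, and the share of all genes that show it was not counted. The cases can therefore not be read as particular to these genes. In edgeR's quasi-likelihood test, 14.5% of all genes had an unadjusted p under 0.05 for the interaction. YAP1 was higher with dantrolene than with vehicle in every isolation (log2 differences of 0.16, 0.59 and 1.17) and lower with LPC + dantrolene than with LPC in every isolation (−0.09, −1.52 and −0.18), so that the means differed by −1.24. TEAD1 did likewise, at 0.07, 0.92 and 1.15 without LPC and −0.34, −1.65 and −0.01 with it, a difference of −1.38. WWTR1 was higher with LPC than with vehicle (0.04, 0.17 and 0.64) and lower with LPC + dantrolene than with dantrolene (−0.35, −0.84 and −0.28), a difference of −0.77. The difference between paired effects was not tested in this form. The interaction in edgeR's quasi-likelihood model, which measures the same quantity without the pairing, did not pass for YAP1 (adjusted p = 0.287), TEAD1 (adjusted p = 0.176) or WWTR1 (adjusted p = 0.499). Isolation 2 contributed the largest negative difference to each, and for YAP1 and TEAD1 several of the other differences were close to 0. Without LPC + dantrolene replicate 2, LPC + dantrolene compared to LPC went from −0.42 to −0.05 for YAP1 and from −0.49 to −0.13 for TEAD1 in edgeR, and LPC + dantrolene compared to dantrolene was at −0.21 for WWTR1. The interaction then went from −1.02 to −0.71 for YAP1, from −1.16 to −0.86 for TEAD1 and from −0.73 to −0.56 for WWTR1.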

How the results depend on the processing

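Over 70 comparisons of the 10 members and 1320 alternative values, no called value changed sign, 48 values lost a call and 14 gained one. With LPC, the members called higher were 1, and 2 with at least 10 counts in every library, 3 with only the groups compared, 2 at an adjusted p under 0.1, and 0 to 3 with each library left out in turn. With dantrolene, those higher were 0 to 2 with libraries left out. Those lower were 2, and 1 with RLE size factors, 0 with library totals, 0 with DESeq2, and 0 to 2 with libraries left out. With LPC + dantrolene, those higher were 1, and 0 with only the groups compared and 0 to 3 with libraries left out, and those lower were 2, and 1 with library totals, 0 with DESeq2, 1 with only the groups compared and 1 to 4 with libraries left out. For LPC + dantrolene against LPC, 1 was lower, and 0 with library totals, DESeq2 or only the groups compared, and 0 to 2 with libraries left out. LPC against dantrolene gave 0 higher and 1 with at least 10 counts in every library. The interaction gave 0 lower, 1 at an adjusted p under 0.1 and 0 to 1 with libraries left out. The cause of these shifts was not tested.

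With the isolation as a replicate block, the members called lower with dantrolene were 1, those higher and lower with LPC + dantrolene 0 and 1, and those lower against LPC 0. The block changed no other call of a member. Leaving out LPC + dantrolene replicate 2 accounted for 8 of the 14 gained calls. Only 3 libraries per group and the ComBat adjustment limit the precision of every value.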
